A study of Mus musculus with 6 samples.

Results

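The interleukin-6 family was examined here as 10 genes taken by symbol from the gene counts: the ligands Il6, Il11, Lif and Clcf1, the receptor genes Il6st, Osmr, Lifr and Il11ra1, the transcription factor gene Stat3 and its feedback inhibitor Socs3. They were 10 of the 54752 genes in the table. The cells were NIH/3T3, an established fibroblast line from mouse embryos, and their rRNA-depleted RNA was sequenced in 3 groups with 2 replicate libraries each. For 72 h the cells received vehicle (PBS), or 1 ng/ml of TGF-β1 together with DMSO, or the same dose of TGF-β1 together with 5 μM of BI6727, an inhibitor of the kinase PLK1. They are called vehicle, TGF-β1 + DMSO and TGF-β1 + BI6727. The comparisons ask what TGF-β1, which drives fibroblasts towards myofibroblasts, did to these genes and whether BI6727 altered it. Because vehicle was PBS, TGF-β1 and DMSO cannot be told apart in TGF-β1 + DMSO against vehicle. In TGF-β1 + BI6727 against vehicle, TGF-β1 and BI6727 cannot be told apart, and no group received BI6727 without TGF-β1. The labels do not say whether the BI6727 group also received DMSO. If it did not, BI6727 and the absence of DMSO cannot be told apart between the TGF-β1 groups. The labels do not say whether replicates came from separate cultures, so the p-values measure the spread between these libraries, which may be technical.

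Interleukin-6 family cytokines are secreted proteins that act through gp130, the signalling receptor encoded by Il6st. Each ligand adds a partner: interleukin-11 binds the receptor encoded by Il11ra1, LIF binds the LIF receptor, and oncostatin M binds the oncostatin M receptor or the LIF receptor. The assembled receptor activates JAK kinases, which phosphorylate STAT3, and STAT3 in turn induces Socs3, which shuts the receptor off. In fibroblasts the family is known for its part in inflammation and scarring, and interleukin-11 is known as a cytokine made by fibroblasts exposed to TGF-β1.

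Library totals ranged from 18362378 to 24452153 counts on genes, and 18911 to 19891 genes had counts in a library. The TGF-β1 + DMSO replicates stood apart from each other: the SD of the log2 difference between replicates over genes was 0.377 in that group, against 0.163 in vehicle and 0.147 in TGF-β1 + BI6727. Normalized CPM are CPM computed on the summed counts of genes passing the first filter below, after TMM scaling. As a check of treatment, Acta2, the smooth muscle actin gene that marks myofibroblasts, had 92.1 and 100.2 normalized CPM in vehicle, 476 and 473 in TGF-β1 + DMSO, and 348 and 326 in TGF-β1 + BI6727. All 10 fibroblast markers passed that filter, with a summed level of 8125 to 10790 normalized CPM, whereas the summed markers of leukocytes (6 genes, 2 of them at 0 in every library), endothelial cells (5 genes, 2 at 0) and epithelial cells (5 genes, 2 at 0) reached at most 5.597, 3.77 and 0.612.

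With TGF-β1 + DMSO, the ligand genes rose and the receptor genes fell. Against vehicle, Il11 rose 7.61-fold, Lif 3.96-fold and Clcf1 2.46-fold, while Osmr fell 7.84-fold, Il6st 3.79-fold and Il11ra1 2.70-fold, and Stat3 and Socs3 fell 2.44-fold and 2.53-fold. The test was edgeR's quasi-likelihood test on genes that reached 10 CPM in over 3 libraries, and called means a fold change above 2 with a Benjamini-Hochberg adjusted p below 0.01. Il11, Lif, Clcf1, Il6st, Osmr, Il11ra1, Stat3 and Socs3 passed that filter and all 8 were called, 3 higher and 5 lower, where 5.1% of the 9518 genes tested were called, 2.56% higher and 2.53% lower. Il6 and Lifr lay under 10 CPM in 3 or more libraries and were tested among the 14604 genes that edgeR's filterByExpr keeps, a filter that 2 libraries suffice to pass. There Il6 was called higher and Lifr lower, so that 10 of 10 were called, against a background of 5.98%, with 2.75% higher and 3.23% lower. The count depended on the library left out, which leaves 1 library in that group. Calls were lost without a vehicle library, and for Il11ra1 and Stat3 also without a TGF-β1 + BI6727 library. None were lost without a TGF-β1 + DMSO library, although the replicates of that group differed most and all groups share 1 estimate of the spread. Why calls were lost was not tested. Il11 alone kept its call in every such fit. The log2 changes ranged from 2.78 to 3.07 for Il11, -3.43 to -2.61 for Osmr, -1.80 to -1.14 for Il11ra1 and -1.58 to -1.04 for Stat3. All log2 changes kept their direction in these fits. Since RNA came from whole cultures, fewer cells that express a gene and less RNA per cell cannot be told apart.

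**Figure D1:**
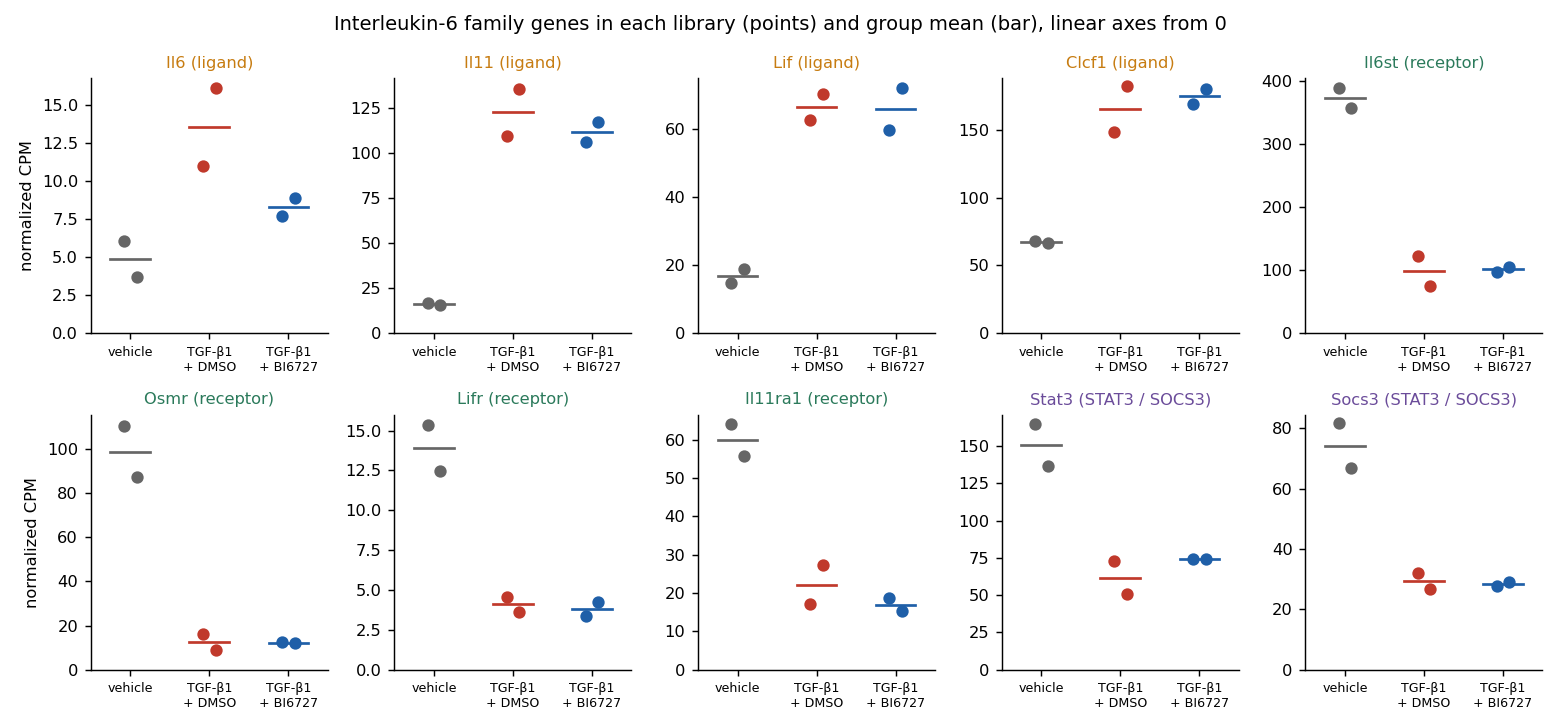
Normalized CPM of the 10 genes in each of the 6 libraries (points) with the group mean (bar), on linear axes from 0. In every panel the vehicle libraries do not overlap the 4 libraries with TGF-β1: the ligand genes in the top row lie lower in vehicle, and the receptor genes, Stat3 and Socs3 lie higher.

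Il11 encodes interleukin-11. It (ENSMUSG00000004371.15, chr7:4772373-4782859, minus strand, mm10, counted over its exons like all genes here) had 16.7 and 15.5 normalized CPM in vehicle, 109.8 and 136 in TGF-β1 + DMSO, and 106 and 117 in TGF-β1 + BI6727. Every library with TGF-β1 stood far above both vehicle libraries, and the change was the steepest rise of the family, 2.93 on the log2 scale (SE 0.141, 95% confidence interval 2.60 to 3.26, adjusted p = 4.12e-05 by edgeR). Lif encodes leukemia inhibitory factor, a cytokine that acts through the LIF receptor and gp130. Lif (ENSMUSG00000034394.14, chr11:4257557-4272514, plus strand) had 14.7 and 18.8 normalized CPM in vehicle, 62.7 and 70.3 in TGF-β1 + DMSO, and 59.9 and 72.2 in TGF-β1 + BI6727. It rose by 1.98 on the log2 scale (SE 0.165, 95% confidence interval 1.598 to 2.37, adjusted p = 3.24e-04 by edgeR), and the groups with and without TGF-β1 did not overlap. Without overlap between TGF-β1 + DMSO and vehicle were 62.9% of all genes tested.

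Clcf1 encodes cardiotrophin-like cytokine factor 1, a ligand whose signal also runs through gp130. Clcf1 (ENSMUSG00000040663.8, chr19:4214238-4223490, plus strand) had 68.1 and 66.2 normalized CPM in vehicle, 148 and 182 in TGF-β1 + DMSO, and 169 and 180.5 in TGF-β1 + BI6727. Per length it was the most abundant ligand gene of the 4 in vehicle (35.5 TPM), and it rose least of the 3 tested with the first filter, by 1.30 on the log2 scale (SE 0.121, 95% confidence interval 1.02 to 1.58, adjusted p = 4.80e-04 by edgeR). Il6 encodes interleukin-6. It (ENSMUSG00000025746.11, chr5:30013114-30019981, plus strand) had 6.02 and 3.69 normalized CPM in vehicle, 10.96 and 16.1 in TGF-β1 + DMSO, and 7.73 and 8.86 in TGF-β1 + BI6727, from 81 to 335 counts. Its 3 groups lay in that order, TGF-β1 + BI6727 between the other two, without overlap. Among the genes kept by filterByExpr it rose by 1.49 with TGF-β1 + DMSO (SE 0.278, 95% confidence interval 0.86 to 2.13, adjusted p = 0.00670 by edgeR). Among genes tested with that filter, 60.9% did not overlap between these 2 groups. The call of Il6 was lost in a fit of only the 2 groups (adjusted p = 0.0180 by edgeR), with the replicate number as a block (0.0132), and without either vehicle replicate or either TGF-β1 + BI6727 replicate, within a range of 1.02e-05 to 0.0730 over all alternatives.

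The sequences before the starts of 3 of the ligand genes, Il11, Lif and Il6, are shown because the ligand genes rose together with TGF-β1 + DMSO, and AP-1, a dimer of Fos and Jun proteins, is known to act on promoters of cytokine genes. The sequences are those of RefSeq on GRCm38.p6, the build that mm10 names, 5′ to 3′ on the strand of the gene. They cover up to 250 bases before a listed start, cut where an exon of the gene begins, and capitals mark a match to TGANTCA, the AP-1 motif, searched on both strands.
Il11, second listed start, chr7:4778142-4778391: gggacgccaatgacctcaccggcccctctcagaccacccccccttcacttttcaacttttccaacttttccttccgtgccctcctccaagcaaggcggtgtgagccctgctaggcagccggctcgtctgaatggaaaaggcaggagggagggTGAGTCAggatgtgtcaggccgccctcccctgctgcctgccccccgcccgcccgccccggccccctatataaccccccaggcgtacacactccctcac
Lif, chr11:4257318-4257556: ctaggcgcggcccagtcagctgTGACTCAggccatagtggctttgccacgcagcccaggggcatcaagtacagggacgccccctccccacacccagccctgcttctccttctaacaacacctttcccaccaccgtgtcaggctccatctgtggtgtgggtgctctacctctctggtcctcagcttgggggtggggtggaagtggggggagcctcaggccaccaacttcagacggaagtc
Il6, chr5:30012864-30013113: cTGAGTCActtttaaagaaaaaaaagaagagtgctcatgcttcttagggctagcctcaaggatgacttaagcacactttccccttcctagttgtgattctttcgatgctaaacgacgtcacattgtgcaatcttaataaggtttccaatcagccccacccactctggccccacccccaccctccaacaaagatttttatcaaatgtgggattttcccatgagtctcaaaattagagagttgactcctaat
The match in Il11 began 98 bases before the start, that in Lif 228 bases and that in Il6 249 bases. Il11 has 2 listed starts, and the window of the other, chr7:4782858-4783107, held no match. Of the 10 genes 9 had an entry, all but Clcf1, with 12 windows in all, and the motif lay in 3 of these 9 genes, those shown, where 7.82% of the 27025 genes in the table and 6.75% of their 32851 windows held it. The windows of Il6st, Osmr, Lifr, Il11ra1, Stat3 and Socs3 held no such letters. The search covered all 250 bases of a window, exon included, and the windows were unlike in this. Exon of the gene made up all 250 bases for Osmr, 247 in 1 window of Il11ra1 and 77 for Socs3. In the windows with a match it made up 11 bases for Lif and 0 for Il11 and Il6. A match describes these letters and is not a measured binding site.

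Il6st, which encodes the shared receptor gp130, had the highest level per length of the 10 genes in vehicle (66.1 TPM). Il6st (ENSMUSG00000021756.12, chr13:112464070-112510086, plus strand) had 389 and 358 normalized CPM in vehicle, 123 and 74.5 in TGF-β1 + DMSO, and 97.7 and 106 in TGF-β1 + BI6727. It fell by 1.92 on the log2 scale (SE 0.215, 95% confidence interval -2.43 to -1.42, adjusted p = 0.00112 by edgeR), with all 4 TGF-β1 libraries far below vehicle and the TGF-β1 + DMSO replicates unequal. Osmr encodes the oncostatin M receptor, which pairs with gp130. Osmr (ENSMUSG00000022146.12, chr15:6813577-6874969, minus strand) had 110.2 and 87.1 normalized CPM in vehicle, 16.03 and 9.15 in TGF-β1 + DMSO, and 12.5 and 12.05 in TGF-β1 + BI6727. No other gene of the 10 fell as steeply, by 2.97 on the log2 scale (SE 0.258, 95% confidence interval -3.58 to -2.36, adjusted p = 4.01e-04 by edgeR).

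Lifr encodes the LIF receptor, the partner of gp130 for LIF. Lifr (ENSMUSG00000054263.12, chr15:7090614-7197489, plus strand) had 15.4 and 12.5 normalized CPM in vehicle, 4.59 and 3.61 in TGF-β1 + DMSO, and 3.39 and 4.26 in TGF-β1 + BI6727. Its vehicle libraries alone exceeded 10 normalized CPM, and among the genes kept by filterByExpr it fell by 1.75 on the log2 scale (SE 0.228, 95% confidence interval -2.27 to -1.23, adjusted p = 0.00116 by edgeR), a call lost without either vehicle replicate (adjusted p = 0.0242 and 0.0112 by edgeR, within 4.57e-08 to 0.0242 over all alternatives). Il11ra1 encodes the alpha receptor of interleukin-11. Il11ra1 (ENSMUSG00000073889.10, chr4:41699989-41769474, plus strand) had 64.0 and 55.7 normalized CPM in vehicle, 17.0 and 27.3 in TGF-β1 + DMSO, and 18.7 and 15.3 in TGF-β1 + BI6727. It fell by 1.43 on the log2 scale (SE 0.228, 95% confidence interval -1.97 to -0.90, adjusted p = 0.00504 by edgeR). Its counts are uncertain: 46.3% of the 50-base windows of its transcripts also occur in other genes, most often Gm13305, so the authors' counting could have split its reads. Its call was lost in a fit of only the 2 groups (adjusted p = 0.0137 by edgeR), with the replicate number as a block (0.0113) and when any 1 of the vehicle or TGF-β1 + BI6727 libraries was left out, within a range of 9.40e-09 to 0.0702 over all alternatives.

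Stat3 and Socs3, the signal transducer and its inhibitor, fell together with the receptor genes. Stat3 (ENSMUSG00000004040.16, chr11:100885098-100939540, minus strand) had 165 and 136 normalized CPM in vehicle, 72.8 and 50.6 in TGF-β1 + DMSO, and 74.3 in both TGF-β1 + BI6727 libraries. It fell by 1.29 on the log2 scale (SE 0.179, 95% confidence interval -1.71 to -0.87, adjusted p = 0.00286 by edgeR). In a fit of only the 2 groups its adjusted p was 0.0112 by edgeR, and it was not called when any 1 of the vehicle or TGF-β1 + BI6727 libraries was left out, within a range of 2.83e-10 to 0.0486 over all alternatives. Socs3 is a gene that STAT3 itself is known to switch on. Socs3 (ENSMUSG00000053113.3, chr11:117966079-117970047, minus strand) had 81.7 and 66.8 normalized CPM in vehicle, 31.9 and 26.7 in TGF-β1 + DMSO, and 27.9 and 29.1 in TGF-β1 + BI6727. It fell by 1.34 on the log2 scale (SE 0.148, 95% confidence interval -1.69 to -0.99, adjusted p = 0.00106 by edgeR), and no TGF-β1 library reached the lower vehicle library.
The sequence before the listed start of Socs3 is shown because its window alone among the 12 held TTCNNNGAA, the motif that STAT factors bind. The match is in capitals and began 154 bases before that start. This start lies inside the counted span of Socs3, whose 5′ end on the minus strand is 117970047. The window is therefore not upstream of the whole gene, and 77 of its 250 bases are Socs3 exon.
Socs3, chr11:117969452-117969616: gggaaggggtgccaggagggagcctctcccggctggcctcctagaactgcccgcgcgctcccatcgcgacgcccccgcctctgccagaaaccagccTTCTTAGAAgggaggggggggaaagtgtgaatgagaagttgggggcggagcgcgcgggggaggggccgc
The motif lay in 1 of the 9 genes with an entry, where 8.13% of all genes in the table held it, so this match is near the background. It describes these letters and is not a measured binding site.

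**Figure D2:**
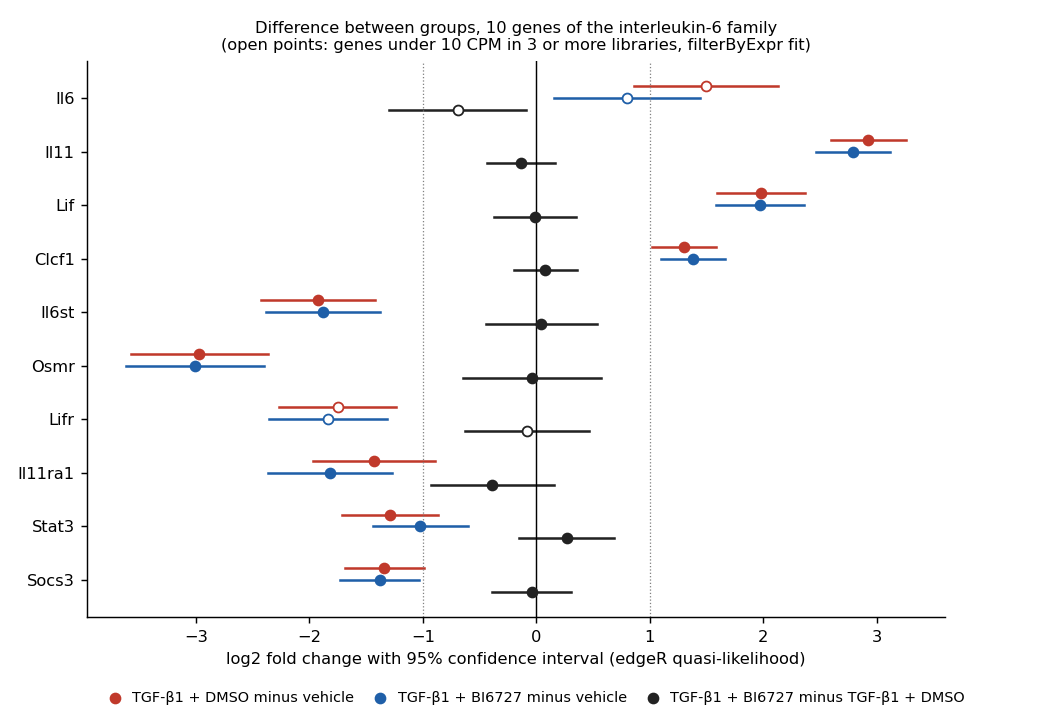
Log2 fold changes of the 10 genes with 95% confidence intervals from edgeR for the 3 comparisons; dotted lines mark a fold change of 2, and open points are Il6 and Lifr, fitted among the genes kept by filterByExpr. The red and blue points of each gene lie on the same side of 0, from -3.01 for Osmr to 2.93 for Il11, and 9 of the 10 black intervals, TGF-β1 + BI6727 minus TGF-β1 + DMSO, include 0, that of Il6 excepted.

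Levels of different genes were compared per length, as TPM, which divides counts by exonic length and scales each library to the same sum. In vehicle the order was Il6st (66.1 TPM), Socs3 (50.4), Clcf1 (35.5), Stat3 (31.1), Il11ra1 (26.3), Osmr (16.001), Il11 (15.2), Lif (7.56), Il6 (3.93) and Lifr (2.54), as means of 2 libraries. The libraries of Stat3 and Il11ra1 overlapped, as did those of Osmr and Il11, and the other neighbours in that order did not. In TGF-β1 + DMSO the order was led by Il11 (105 TPM), Clcf1 (79.1) and Lif (27.3), which stood apart from each other and from the rest. Socs3 (18.5 TPM), Il6st (16.5), Stat3 (11.9), Il6 (9.79) and Il11ra1 (8.65) followed, each overlapping the next, with Osmr (1.94) and Lifr (0.696) at the bottom. In TGF-β1 + BI6727 the same 3 ligand genes led, Il11 with 99.3 TPM, Clcf1 with 87.1 and Lif with 28.1, and Osmr (1.87) and Lifr (0.658) again came last. Il6st, the shared receptor gene, stood first of the 10 in vehicle and below Il11, Clcf1 and Lif in both TGF-β1 groups, where its libraries overlapped those of Socs3.

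**Figure D3:**
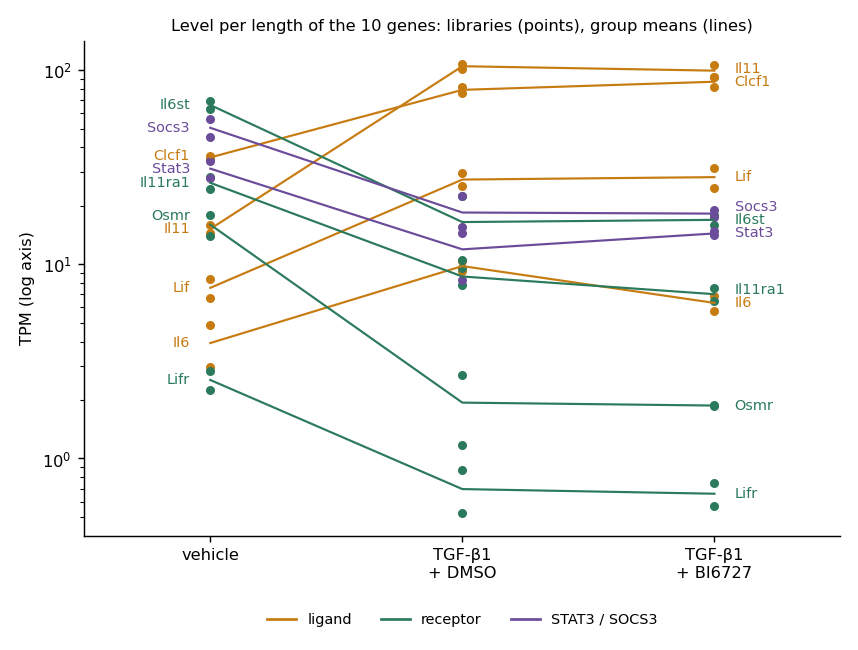
TPM of the 10 genes in each library (points) and group means (lines) on a log axis, coloured by role. Il11, Clcf1 and Lif lead both TGF-β1 groups at 27.3 to 105 TPM, and Osmr and Lifr end them below 2 TPM.

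The ratio of ligand to receptor transcripts within a library moved accordingly. Il11 over Il11ra1, in TPM, was 0.562 and 0.599 in vehicle, 13.8 and 10.7 in TGF-β1 + DMSO, and 12.2 and 16.5 in TGF-β1 + BI6727, so the receptor transcript exceeded the ligand transcript only in vehicle. Lif over Lifr was 2.38 and 3.73 in vehicle, 33.8 and 48.2 in TGF-β1 + DMSO, and 43.7 and 41.9 in TGF-β1 + BI6727. These ratios carry the uncertainty of Il11ra1 named above, and describe transcripts, not protein. Lifr had 61 to 296 counts a library. The TGF-β1 + DMSO replicates also differed along gene length, as given below. That difference enters the TPM of that group, its order and its ratios.

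Gene length moved with these results. Osmr, Il6st, Lifr and Stat3 were long genes, with 12113, 11099, 10776 and 9527 exonic bases against a median of 4426 over the genes tested. Il11ra1, with 4471 bases, lay near that median, and Il11 and Il6 had 2081 and 2428. Within TGF-β1 + DMSO, genes of 5919 or more bases, the 3173 longest, had a median log2 ratio of replicate 2 to replicate 1 of -0.28, and the 3173 shortest genes, up to 3204 bases, a ratio of 0.25. In the other groups, both medians lay between -0.05 and 0.04. In that replicate 2, Il6st (log2 ratio to replicate 1 of -0.72), Osmr (-0.81), Lifr (-0.35) and Stat3 (-0.53) were lower and Il6 (0.56), Il11 (0.30), Lif (0.17) and Clcf1 (0.30) higher. Il11ra1 was higher too (0.68), the largest positive ratio of the 10 and opposite to the other receptor genes, while Socs3, with 2891 bases, was lower (-0.26). When each library's trend on gene length was removed, an alternative chosen after the data were seen, all 8 genes were still called, where 5.32% of all genes were, with log2 changes of 2.82 for Il11, 2.00 for Lif, 1.29 for Clcf1, -1.75 for Il6st, -2.78 for Osmr, -1.41 for Il11ra1, -1.14 for Stat3 and -1.38 for Socs3. Lifr (-1.56) and Il6 (1.44) also stayed called.

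**Figure D4:**
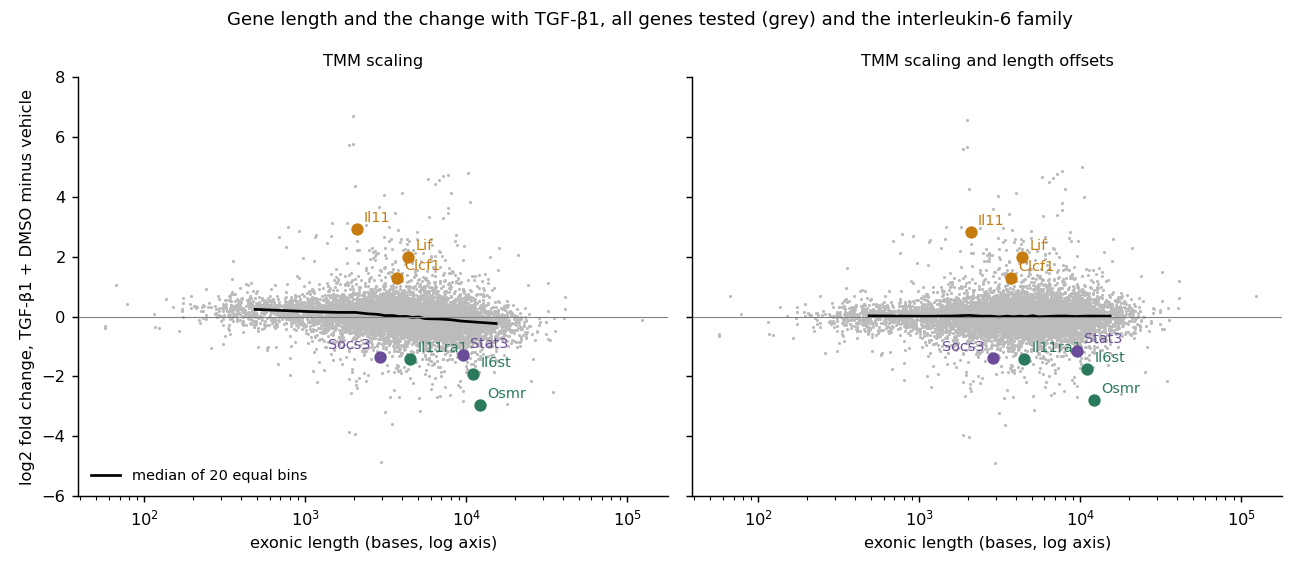
Log2 fold change of TGF-β1 + DMSO minus vehicle against exonic length (log axis) for the 9518 genes tested (grey), with the median of 20 equal bins (line) and the 8 interleukin-6 family genes tested; left, TMM scaling, right, with each library's trend on length removed. The line slopes downwards with length on the left and is flat on the right, and the 8 coloured genes lie away from it in both panels.

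TGF-β1 + BI6727 against vehicle gave the same picture for the receptor genes and for 3 of the 4 ligand genes. This comparison shares its vehicle libraries with the first, so the 2 are not independent. Il11 was 6.93-fold higher, Lif 3.93-fold and Clcf1 2.60-fold, and Osmr was 8.04-fold lower, Il6st 3.68-fold and Il11ra1 3.52-fold. On the log2 scale the changes were 2.79 (SE 0.140) for Il11, 1.98 (SE 0.165) for Lif, 1.38 (SE 0.121) for Clcf1, -3.01 (SE 0.259) for Osmr, -1.88 (SE 0.215) for Il6st and -1.82 (SE 0.233) for Il11ra1. Stat3 changed by -1.02 (SE 0.178) and Socs3 by -1.38 (SE 0.148). All 8 genes tested were called, 3 higher and 5 lower, where 5.31% of genes were called, 2.34% higher and 2.96% lower. For each of the 8 the groups did not overlap, which held for 76.8% of all genes tested.

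Among the genes kept by filterByExpr, where the background was 6.22%, with 2.51% higher and 3.71% lower, 9 of 10 were called. Lifr fell by 1.83 on the log2 scale (SE 0.229, adjusted p = 8.61e-04 by edgeR) and Il6 was not called, with a log2 difference of 0.80 (SE 0.282, 95% confidence interval 0.16 to 1.44, adjusted p = 0.0768 by edgeR). Il6 still lay higher in both TGF-β1 + BI6727 libraries than in both vehicle libraries, where 71.3% of genes tested with that filter did not overlap. Of the 8 genes, Il11, Lif and Osmr (3 genes) were called without vehicle replicate 1, these and Socs3 (4) without vehicle replicate 2, and Il11, Lif, Clcf1 and Osmr (4) without either TGF-β1 + BI6727 replicate. Lifr was not called without vehicle replicate 1 or either TGF-β1 + BI6727 replicate. Stat3 lay just past the fold of 2 and under it once the length trend was removed (-0.94), when 7 of the 8 genes and 5.63% of all genes were called.

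Between TGF-β1 + BI6727 and TGF-β1 + DMSO, the comparison that holds TGF-β1 constant, none of the 10 genes was called. edgeR called 0 of 9518 genes in all, so the background was 0%, and DESeq2 called 11 genes, all lower, none of them among the 10. With the length trend removed edgeR called 0.063% of all genes and again 0 of the 8. At an unadjusted p below 0.05, edgeR gave 6.68% of all genes, 0 of the 8 tested here, and, among the genes kept by filterByExpr, Il6 alone of the 10, where 7.13% of all genes passed. The log2 differences were -0.13 for Il11 (95% confidence interval -0.43 to 0.16), -0.01 for Lif (-0.37 to 0.35) and 0.08 for Clcf1 (-0.20 to 0.36). For these ligand genes the intervals ran from a fold of 0.741 to 1.28. They rest on a spread shared by all groups, while the TGF-β1 + DMSO replicates differed more than the others, so they may be too narrow. The receptor genes had wider intervals, with 0.05 for Il6st (-0.45 to 0.54) and -0.04 for Osmr (-0.64 to 0.57). Lifr differed by -0.08 (-0.63 to 0.47, filterByExpr) and Il11ra1 by -0.39 (-0.93 to 0.16).

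Stat3 differed by 0.27 (95% confidence interval -0.15 to 0.69) and was higher in both TGF-β1 + BI6727 libraries by a small margin, 74.3 in each against 72.8 and 50.6 normalized CPM. Socs3 differed by -0.04 (-0.39 to 0.31). Il6 had the largest difference of the 10 genes, -0.69 (SE 0.266, 95% confidence interval -1.30 to -0.09, unadjusted p = 0.0299, adjusted p = 0.655 by edgeR), and was lower in both TGF-β1 + BI6727 libraries than in either TGF-β1 + DMSO library. Groups that did not overlap were seen for 34.1% of the genes tested with the first filter and 35.1% of those kept by filterByExpr. These intervals are not limits of detection at this depth and with 2 libraries a group. Il6 was not called although its interval, -1.30 to -0.09, lay wholly below no change. Calls also needed a fold above 2, so a smaller difference could not be called. Without TGF-β1 + DMSO replicate 1, which leaves 1 library in that group, Stat3 (0.56, adjusted p = 6.83e-04 by edgeR), Il6st (0.45, 9.11e-04) and Il11ra1 (-0.69, 0.00132) fell below an adjusted p of 0.01 but stayed under the fold of 2, and without replicate 2 their differences were 0.017, -0.28 and -0.024. Over all alternatives their adjusted p reached 0.9998. Plk1, which encodes the target of BI6727, had 71.6 and 70.5 normalized CPM in TGF-β1 + DMSO and 60.2 and 63.4 in TGF-β1 + BI6727; the inhibitor acts on the protein, so its transcript does not check the treatment.

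The remaining genes of the pathway were taken as 52 genes in 5 lists: other ligands and ligand partners, other receptors, JAK kinases and STATs, negative regulators, and genes known as STAT3 targets. Of these, 32 were tested, and in TGF-β1 + DMSO against vehicle 4 were called higher and 3 lower. Without vehicle replicate 1 or 2 only 2 were called, with 1 library left in that group. The median log2 change of the 32 was -0.16, against -0.00 for all genes tested. Among the other receptors, Il6ra, the alpha receptor of interleukin-6, was the gene tested and was not called, with 32.1 and 33.0 normalized CPM in vehicle and 23.2 and 22.4 in TGF-β1 + DMSO (adjusted p = 0.0245 by edgeR). It was named after its values were seen.

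In TGF-β1 + DMSO against vehicle edgeR and DESeq2 each called 0 of the 8 JAK and STAT genes tested, 4 of which had an unadjusted p below 0.05, and 0 of the 7 negative regulators, with 3 below 0.05. In TGF-β1 + BI6727 against vehicle, Socs1 and Socs2, inhibitors of the same family as Socs3, were called lower, by 1.12 and 1.27 on the log2 scale, the 2 of 7 negative regulators called, where 2.96% of all genes were called lower. Socs1 had 47.7 and 51.0 normalized CPM in vehicle, 26.4 and 32.9 in TGF-β1 + DMSO, and 21.8 and 23.6 in TGF-β1 + BI6727. Socs2 had 28.6 and 21.2 normalized CPM in vehicle, 14.8 and 12.7 in TGF-β1 + DMSO, and 10.6 and 10.0 in TGF-β1 + BI6727. Both already lay below vehicle in TGF-β1 + DMSO, and neither was called between the TGF-β1 groups (adjusted p = 0.720 and 0.745 by edgeR).

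The STAT3 targets did not move one way. Of 15 tested in TGF-β1 + DMSO against vehicle, Vegfa, Pim1 and Timp1 (3 genes) were called higher and Cebpb, Cebpd and Ccl2 (3) lower, where 2.56% of all genes were called higher and 2.53% lower. Vegfa, which encodes the angiogenic growth factor VEGF-A, had 96.9 and 103 normalized CPM in vehicle and 609 and 596 in TGF-β1 + DMSO (log2 change 2.59). Timp1, an inhibitor of matrix metalloproteinases, rose by 1.36 and Pim1, a kinase gene, by 1.496 on the log2 scale. Cebpd and Cebpb, transcription factor genes of the acute-phase response, fell by 1.81 and 1.12, and Ccl2, a monocyte chemoattractant, fell by 1.19. Reads of Cebpb, Cebpd and Pim1 are partly uncertain, since 20.7%, 15.0% and 14.5% of their exonic bases overlap a gene on the opposite strand and the strand setting of the counting is not given in the sources used here.

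Targets that were high only in vehicle were removed by the first filter, which needs 4 libraries. With filterByExpr 21 of the 22 targets were tested and 3 were called higher and 8 lower, where 2.75% and 3.23% of all genes kept by that filter were, adding Bcl3 (log2 change -1.73), Fos (-2.92), Lcn2, Saa3 and Hp. Saa3, an acute-phase serum amyloid gene, had 206 and 99.8 normalized CPM in vehicle and at most 1.40 in any TGF-β1 library. Hp, which encodes haptoglobin, had 49.7 and 23.6 normalized CPM in vehicle, 2.66 and 0.722 in TGF-β1 + DMSO, and 0.334 and 0.124 in TGF-β1 + BI6727. Lcn2, an acute-phase lipocalin, had 54 and 65 counts in vehicle and 0, 4, 0 and 2 counts with TGF-β1, too few for a fold change to be read. It passed the filter only through the vehicle libraries, where it was high, so it had to come out lower and its place in that count supports nothing. Vehicle replicate 1 was the higher of the pair for Saa3, Hp and Fos. Between the 2 TGF-β1 groups edgeR and DESeq2 each called 0 of these 43 pathway genes, 6 of which had an unadjusted p below 0.05, against 7.13% of all genes kept by filterByExpr.

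**Figure D5:**
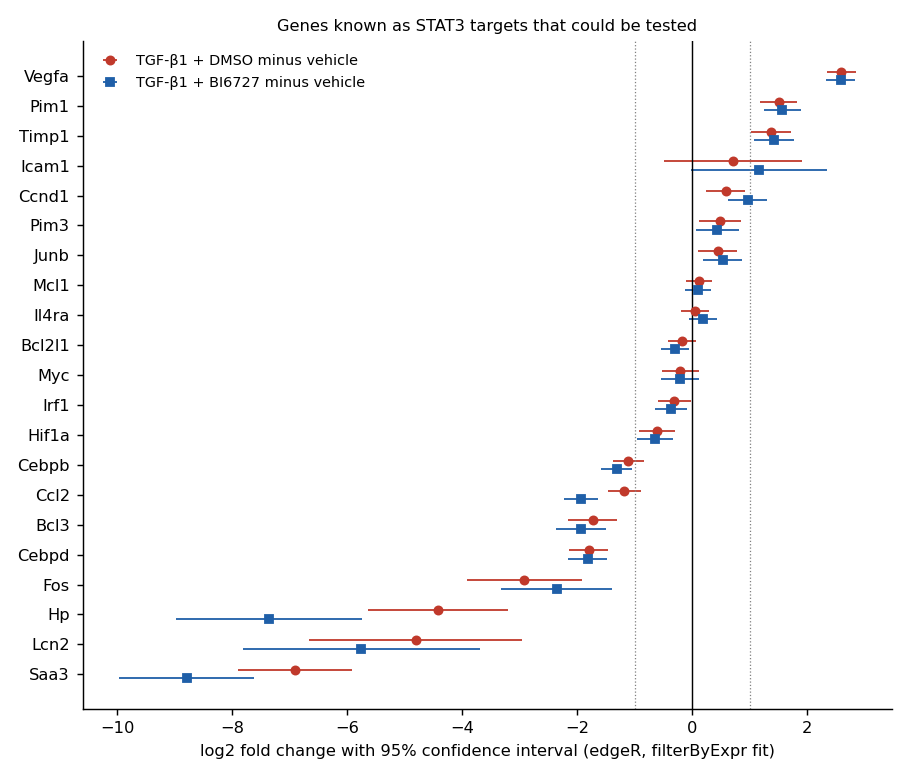
Log2 fold changes with 95% confidence intervals (edgeR, genes kept by filterByExpr) of the 21 STAT3 targets tested, for TGF-β1 + DMSO and TGF-β1 + BI6727 minus vehicle; dotted lines mark a fold change of 2. Vegfa, Pim1 and Timp1 lie to the right of the lines and 8 genes from Cebpb to Saa3 to the left in both comparisons; the values of Lcn2 and, in TGF-β1 + BI6727, of Hp and Saa3 rest on 10 or fewer counts in each TGF-β1 library concerned.

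The genes whose pattern over the 6 libraries lay nearest to those of Il11 and Lif were sought among the genes that passed the first filter, as the mean absolute difference in log2 CPM after each gene was centred on its vehicle mean. Nearest to Il11 were Gng11 (0.138), a G protein subunit, Tcim (0.140), Prss23 (0.141), a secreted protease, Pmepa1 (0.153), a known TGF-β1 target and inhibitor, and Hbegf (0.159), an EGF receptor ligand. Nearest to Lif were Dusp9 (0.0743), a MAP kinase phosphatase, Pdgfa (0.0966), a growth factor for fibroblasts, Nupr1 (0.101), Fgf2 (0.103), a fibroblast growth factor, and Dyrk3 (0.109). All points come from the same 6 libraries and share their depth and scaling.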

How the data were processed

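RNA-seq gene counts of 6 NIH/3T3 libraries were used, with groups and replicate numbers from the labels. The authors mapped reads to mm10 with Subjunc and counted them on Gencode M20 genes with featureCounts (Subread 1.6.4), and deposited raw counts without normalization. The strand setting is not given in the sources used here. Of 54752 identifiers, 54723 matched a symbol by Ensembl identifier.

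In R 4.3.3, genes reaching 10 CPM in over 3 libraries were compared with edgeR 4.0.16 (TMM, quasi-likelihood test, 1 fit of 6 libraries, 3 residual degrees of freedom), after a check on simulated counts. Calls needed a fold change above 2 and an adjusted p (Benjamini-Hochberg) below 0.01. Il6 and Lifr were fitted among genes kept by filterByExpr. DESeq2 1.42.0, other scalings, filters, thresholds, blocks and sets of libraries were alternatives, and length offsets (lowess span 0.3) and a crossed block were added after the data were seen. log2 CPM used a prior count of 1. The 10 genes and the lists were chosen with earlier results of these data known. Text names the 10 genes, called pathway genes, the 5 nearest genes to Il11 and Lif, and treatment checks. Some of these genes are not reported here.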

Additional observations from a re-analysis of the deposited data

How the results depend on the processing

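Every log2 change against vehicle kept its direction under alternatives that keep all libraries, in 118 values per comparison. The 60 values with a library left out kept it too. Alternatives that changed only the thresholds repeat the main log2 values, so those values could not change direction. Calls were lost in 5 of the 118 values for TGF-β1 + DMSO, for Il6, Il11ra1 and Stat3, and in 2 for TGF-β1 + BI6727, both for Stat3 with length offsets (-0.94) or length offsets with the block (-0.93). In a fit of only the 2 groups, Il6 had 1.51 (adjusted p = 0.0180 by edgeR), Il11ra1 -1.42 and Stat3 -1.28. Same-numbered replicates deviated with r = -0.11, 0.047 and -0.26 between groups. The TGF-β1 + DMSO replicates differ along gene length, which enters these values. Whether same-numbered libraries share a batch was not tested. With the replicate number as a block, Il6 had 1.48 (adjusted p = 0.0132 by edgeR) and Il11ra1 -1.44 (adjusted p = 0.0113), and 7 of 8 genes were called in TGF-β1 + DMSO and 8 of 8 in TGF-β1 + BI6727. With the numbers of the TGF-β1 + DMSO libraries crossed, 8 and 8 were called. Between the TGF-β1 groups, Il6st turned to -0.037 with length offsets and to -0.027 with the block added, and Osmr to 0.0099 with the block. Of the pathway lists, called genes rose from 7 to 13 with filterByExpr, to 13 with at least 10 counts in total and to 15 at an adjusted p below 0.05 without a fold minimum in TGF-β1 + DMSO, and from 9 to 15, 15 and 16 in TGF-β1 + BI6727. More genes were tested under both filters.

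With a library left out, the genes called of the 8 ranged from 1 to 8 in TGF-β1 + DMSO and from 3 to 8 in TGF-β1 + BI6727 against vehicle, and the pathway genes from 2 to 8 and from 3 to 9. A group then holds 1 library, assumed to vary like the others. Il6 ranged from 1.18 to 1.88 in TGF-β1 + DMSO, and Lifr from -1.94 to -1.57 and, in TGF-β1 + BI6727, from -2.01 to -1.68. Between the TGF-β1 groups the ranges were -0.28 to 0.01 for Il11, -0.15 to 0.12 for Lif, -0.057 to 0.22 for Clcf1, -0.28 to 0.45 for Il6st, -0.40 to 0.42 for Osmr, -0.26 to 0.11 for Lifr, -0.17 to 0.097 for Socs3, -0.94 to -0.41 for Il6, -0.69 to -0.024 for Il11ra1 and 0.017 to 0.56 for Stat3. None of the 10 was called by edgeR in these fits, although Stat3, Il6st and Il11ra1 passed the adjusted p of 0.01, with a fold under 2, without TGF-β1 + DMSO replicate 1. Depth limits Il6 and Lifr most, at 61 to 335 counts a library.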

Other observations

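Osm, which encodes oncostatin M, a ligand of the receptor encoded by Osmr, had 4 counts in TGF-β1 + DMSO replicate 2 and 0 in the other 5 libraries, where a count of 0 allows up to 3 counts, or 0.124 to 0.167 normalized CPM. All 50-base windows of Il11ra2, a near copy of Il11ra1, also occur in other genes, most often Il11ra1. Il11ra2 had 24 and 43 counts in vehicle, 11 and 55 in TGF-β1 + DMSO, and 2 and 6 in TGF-β1 + BI6727. Osm and Il11ra2 were chosen after their values were seen.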
